A study of Homo sapiens with 2 samples.

Results

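The genes described here encode protein-folding machinery, mainly of the cytosol and mitochondria, of a human gastric cancer cell line, MKN28. The groups are the HSP90 and HSP70 chaperones, their DNAJ (HSP40) partners, the small heat shock proteins and the BAG cochaperones. To these come the mitochondrial chaperonin HSP60 with its lid HSP10, and the subunits of the cytosolic chaperonin CCT. The genes were chosen by symbol, leaving out HSPA5 and DNAJB9 of the endoplasmic reticulum (ER). Some DNAJ members of the ER, such as DNAJB11, DNAJC1, DNAJC3 and DNAJC10, remain. The rule uses no measured value, although it was proposed with earlier results of these data known. The symbols picked 84 of the 19775 genes that the platform annotation gives at least 1 probe set of their own. Of these, 79 encode proteins and 5 are noncoding transcripts named after a neighbouring DNAJ or HSPA gene. HSPA8, HSPA1A, HSPA1B and TCP1 are not among them, because their probe sets list several genes.

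RNA of MKN28 cells was read on 2 Affymetrix arrays, 1 per group, with 54675 probe sets each. The Sox2 group is MKN28 infected with a lentivirus that carries Sox2, a stem cell transcription factor, and selected with puromycin. The control group is MKN28 marked NC, and the labels do not say whether it received a virus or the drug. They do not say either whether the infected cells were a pool or a clone, and cell banks list MKN28 as a derivative of another gastric line, MKN74. With 1 array per group there is no replicate error and no test between the conditions. Every difference below is the array labelled Sox2 minus the array labelled control, and values given as "in Sox2" and "in control" are the intensities of these arrays.

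Chaperones hold unfolded chains until they fold. HSP70 grips short hydrophobic stretches in a cycle driven by ATP, DNAJ proteins bring it clients and start hydrolysis, and BAG proteins help it release nucleotide. HSP90 finishes clients such as kinases and steroid receptors. The ring-shaped chaperonins enclose a chain, CCT for actin and tubulin in the cytosol and HSP60 in mitochondria. The transcription factor HSF1 induces many of these genes in stressed cells by binding repeats of GAA and TTC, the heat shock element.

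The arrays had medians of 34.25 (Sox2) and 34.26 (control), on a linear intensity scale. Transcripts spiked in before labelling (poly-A controls) were lower by all 24 of their probe sets in the Sox2 array, with a median log2 difference of -0.75, and scaling on them would raise every difference by that amount. SOX2 read 172 in the Sox2 array and 123 in the control array by its brightest of 4 probe sets. The 4 differed by -0.46 to 0.49 on the log2 scale, so these readings did not clearly mark the Sox2 array. Where the probe sets lie on the transcript is unknown here, so whether they read the introduced Sox2 cannot be told. Of 5 epithelial markers, 4 passed the filter described next and none lay above the 95th percentile of level. EPCAM, a defining epithelial surface protein, was below the filter, at 4.96 in the Sox2 array and 6.32 in the control array. CDH1 read 78.6 in Sox2 and 91.3 in control (-0.22), and KRT18 70.1 in Sox2 and 88.5 in control (-0.34). KRT8 read 50.25 in Sox2 and 44.6 in control (0.17), and KRT19 40.6 in Sox2 and 37.7 in control (0.11). Of 7 mesenchymal and fibroblast markers 3 lay above the 95th percentile, and LUM was below the filter. COL1A2, DCN and PDGFRB read 72.0, 68.6 and 56.6 in Sox2 and 54.6, 54.1 and 61.7 in control. VIM, a mesenchymal intermediate filament protein, read 5833 in Sox2 and 4288 in control (0.44), COL1A1, a fibroblast collagen, 557 in Sox2 and 576 in control (-0.048), and the 7 differed by -0.13 to 0.44. The summed intensity of the epithelial markers was 244 in the Sox2 array and 268 in the control array, and that of the mesenchymal list, most of it VIM, 7029 in Sox2 and 5429 in control. It was 147 in Sox2 and 142 in control for 4 leukocyte markers and 176 in Sox2 and 191 in control for 3 endothelial markers. No marker differed by 2-fold, and the part of these levels in the chaperone differences was not tested.

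A gene was given the value of its brightest probe set. It was counted where the mean of its 2 log2 values was at or above the array-wide median, which is 34.25 as an intensity. This filter treats both arrays alike. It was passed by 62 of the 84 chaperone genes and 13611 of all genes. A gene's level below means the geometric mean of its intensities, as a percentile among all probe sets. Probe sets bind with different strength, so a level does not rank transcripts by abundance. The spread available is technical: 3245 genes had exactly 2 probe sets above this limit, and from them the log2 difference of 1 probe set had a robust SD of 0.26. Differences between cultures or hybridisations are not part of it. It pools genes of all levels past the filter and was not computed for bright genes alone.

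The bright chaperones mostly read higher in the Sox2 array and the dimmer ones past the filter lay closer to 0. HSP90AA1, CCT3, HSPA4 and HSPA9 were at least 2-fold higher, and no member past the filter was 2-fold lower. In RNA of a whole culture, fewer expressing cells and less RNA per cell cannot be told apart. The count was 4 of 62 (6.45%), against 2.06% of all genes past the filter that were 2-fold higher and 0.647% that were 2-fold lower. At 1.5-fold, 11 members were higher and 2 lower, against 6.24% and 3.55% of all genes. The 62 had a median log2 difference of 0.13, and all 13611 genes one of -0.0038. Of the 62, 40 (64.5%) lay above 0, against 49.4% of all genes.

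Level moved with these counts. All 4 genes at 2-fold were among the 17 members above the 95th percentile of level, an intensity of 158. These 17 had a median log2 difference of 0.73 and 14 lay above 0 (82.4%), against a median of 0.074 and 57.2% among the 1924 genes of the whole array this bright. At 2-fold the 17 held 4 higher (23.5%), against 9.10% of bright genes higher and 2.29% lower. The other 45 members past the filter had a median of 0.062, with 26 above 0 (57.8%) and none at 2-fold, against a median of -0.012 and 48.2% of all genes past the filter below that level. Bright genes also scattered more, with a robust SD of 0.51, the figure for the 13611 genes together being 0.27. The 4 genes had a median genomic length of 41881 bases, against 16302 for the 58 other members that passed and 24335 for all genes that did. The 281 genes at least 2-fold higher over the whole array had 70404.5. After lowess centring, which removes the trend of all probe sets with level but not the wider scatter, the 17 bright members had a median of 0.60. After quantile normalization it was 0.51, and 14 lay above 0 under each. The part of level and of length in the result was not tested.

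**Figure D1:**
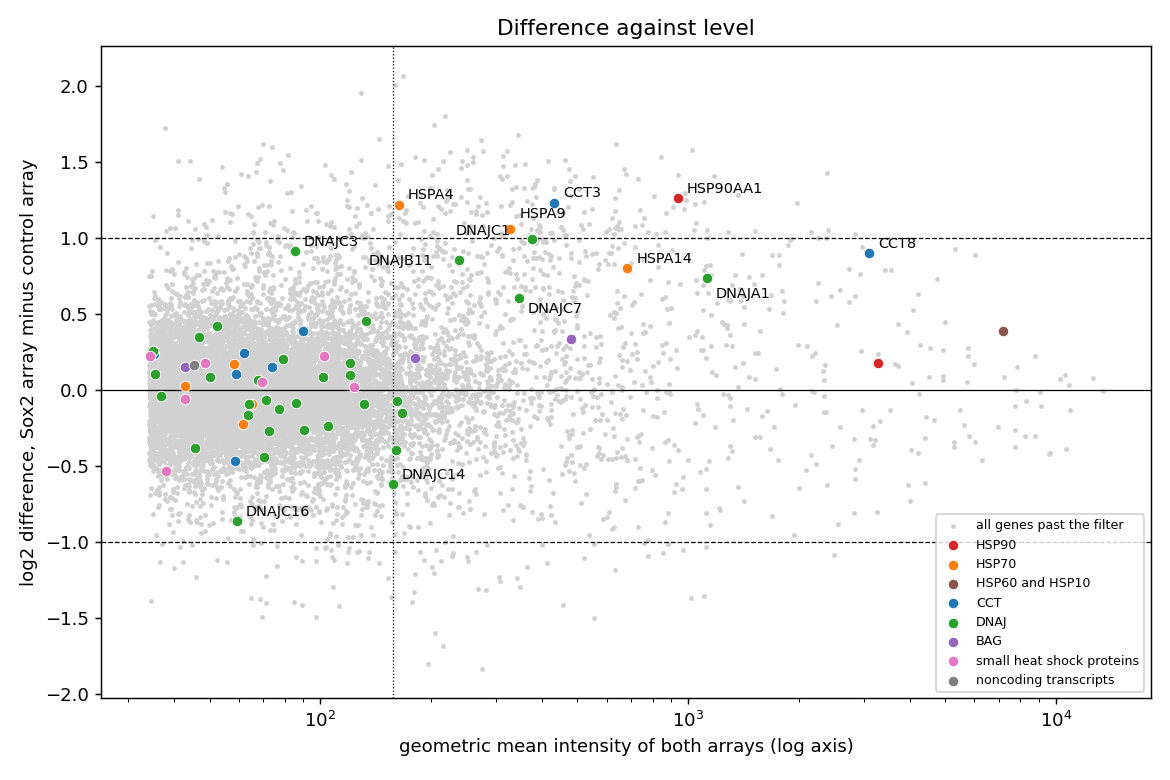
Log2 difference (Sox2 array minus control array) of each gene past the filter against its geometric mean intensity on a log axis, with 62 chaperone genes coloured by group over 13611 genes in grey. Dashed lines mark 2-fold, the dotted line marks the 95th percentile of level (158), and members at least 1.5-fold apart are named; 10 of the 11 named upward lie right of the dotted line.

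The 2 cytosolic HSP90 genes differed from each other. HSP90AA1, the stress-inducible form, read 1450.3 in the Sox2 array and 605 in the control array, a log2 difference of 1.26 or 2.40-fold. HSP90AB1, the constitutive form, read 3497 in the Sox2 array and 3094 in the control array, a log2 difference of 0.18 that is below the technical SD. The gap came from the brightest probe set of each gene. The other HSP90AA1 probe set past the filter read 61.2 in Sox2 and 38.8 in control, a difference of 0.66. The others of HSP90AB1 read 963 in Sox2 and 676 in control, a difference of 0.51, and 65.4 in Sox2 and 54.6 in control, a difference of 0.26. On these further probe sets both genes lay above 0, and those of HSP90AA1 and HSP90AB1 no longer stand as far apart. A dim HSP90AA1 probe set went the other way, at 16.2 in Sox2 and 26.1 in control.

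Both HSP90 promoters hold the heat shock element, searched as the letters GAA, TTC and GAA with any 2 bases between neighbours, on either strand, in the 300 bases from 250 before to 50 after each annotated start. The stretches from -200 to -51 relative to the start are shown because the genes share the element but not the size of their difference. They are from RefSeq on GRCh38.p14, 5′ to 3′ along the gene, at chr14:102087095-102087244 (minus strand) for HSP90AA1 and chr6:44247743-44247892 (plus strand) for HSP90AB1, with the elements in capitals.
HSP90AA1: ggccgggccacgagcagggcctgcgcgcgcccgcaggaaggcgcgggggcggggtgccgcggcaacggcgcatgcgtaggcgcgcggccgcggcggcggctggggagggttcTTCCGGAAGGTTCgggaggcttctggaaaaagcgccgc
HSP90AB1: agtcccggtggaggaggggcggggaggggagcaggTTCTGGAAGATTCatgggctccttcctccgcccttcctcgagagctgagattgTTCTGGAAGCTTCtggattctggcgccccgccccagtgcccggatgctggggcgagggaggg
HSP90AA1 has 1 element in this stretch, from -88 to -76, and HSP90AB1 has elements that begin at -165 and -112.

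RefSeq promoters were found for 70 of the 79 coding members. Some genes have several promoters, and these members had 93 together. The element occurred in 172 of 35116 promoters (0.49%) and in 6 of the 93. They belong to 6 members: HSP90AA1, HSP90AB1, HSPA6, HSPD1, DNAJA1 and DNAJB6. The windows of the other 4 are shown because they set the same letters beside very different readings, again from RefSeq on GRCh38.p14 with the element in capitals. They lie at chr1:161524458-161524486 (plus) for HSPA6, chr2:197500062-197500090 (minus) for HSPD1, chr9:33025268-33025296 (plus) for DNAJA1 and chr7:157336865-157336893 (plus) for DNAJB6.
HSPA6: cggaaaggTTCGCGAAAGTTCgcggcggc
HSPD1: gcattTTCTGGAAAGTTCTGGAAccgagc
DNAJA1: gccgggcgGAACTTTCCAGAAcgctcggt
DNAJB6: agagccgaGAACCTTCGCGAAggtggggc
In HSPD1 a pair of overlapping elements forms 1 run, and in DNAJA1 the element begins at base 4, counting the start as base 1. By its own probe set DNAJB6 was below the filter, at 14.8 in the Sox2 array and 15.8 in the control array. Brighter probe sets that list it with TMEM135 read 94.1 in Sox2 and 78.8 in control (0.26), and 68.9 in Sox2 and 65.65 in control (0.069). The other 5 members with the element had log2 differences of 1.26 (HSP90AA1), 0.73 (DNAJA1), 0.39 (HSPD1), 0.18 (HSP90AB1) and 0.17 (HSPA6), with a median of 0.39. The 49 members past the filter whose promoters lacked the element had a median of 0.099 and held the 3 other genes at 2-fold, CCT3, HSPA4 and HSPA9. Of the 5 with it, HSPD1, HSP90AB1, DNAJA1 and HSP90AA1 lay above the 95th percentile of level. All 17 members that bright had a median of 0.73, and the part of level in this comparison was not tested. The 2-unit forms GAANNTTC and TTCNNGAA, which lie within the longer element, were found in 6.77% and 7.74% of all promoters. They occurred in 17 and 14 of the 93 member promoters, at 16 and 14 members. With either of them the median was 0.20 over 18 members past the filter, and without them 0.092 over 36. A match is a description of letters in this window and shows no binding.

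The HSP70 group split by level. Its 3 brightest members were all at least 1.5-fold higher in the Sox2 array and its 4 dimmer ones past the filter lay near 0. HSPA4, an HSP110-type nucleotide exchange factor of HSP70, read 249.5 in the Sox2 array and 107 in the control array (log2 difference 1.22, 2.32-fold). HSPA9, the HSP70 of the mitochondrial matrix that pulls in imported chains, read 474 in Sox2 and 228 in control (1.06, 2.08-fold). HSPA14, a ribosome-bound HSP70 relative, read 902 in Sox2 and 518 in control (0.80, 1.74-fold). Further probe sets past the filter lay on the same side for HSPA4, at 0.83 and 1.35, and for HSPA9, at 0.31. Both HSPA4 probe sets with the higher levels end in _x_at, a suffix for probes that may bind other transcripts. With _x_at and _s_at probe sets left out, HSPA4 was left with a dim one at 19.5 in Sox2 and 22.5 in control, a log2 difference of -0.20, and HSPA9 with one at 0.15. HSPA9 also dropped under 2-fold with quantile normalization (0.86) and lowess centring (0.97).

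The other HSP70 members varied. HSPA6, strictly heat-inducible in human cells, read 62.0 in the Sox2 array and 55.1 in the control array (0.17). HSPA1L, of the testis, read 57.0 in Sox2 and 66.7 in control (-0.23), and HSPA4L 43.1 in Sox2 and 42.4 in control (0.024). HSPA12B, an endothelial member, read 63.2 in Sox2 and 67.5 in control (-0.096). HSPH1, the heat-inducible HSP110, was below the filter at 39.6 in Sox2 and 24.4 in control, a difference of 0.70 that is near that of HSPA14. HSPA13, HSPA2 and HSPA12A were also below the filter. The group's median over 7 genes was 0.17. Of the 7, 2 were at least 2-fold higher (28.6%), none lower and 5 under 2-fold. Of all genes past the filter, 2.06% were 2-fold higher and 0.647% lower. The group median was 0.80 with the filter at the 75th percentile and 0.43 with a filter on the higher array. HSPH1 passed the latter through its Sox2 reading alone, so the rise to 0.43 follows from that filter.

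Probe sets that list HSPA8, HSPA1A or TCP1 together with other genes were read but assigned to no gene. There were 15 such probe sets for symbols of the chaperone families, of which 8 passed the filter and 7 of these lay above 0. Several of the 7 list the same gene, HSPA8 or DNAJB6, and the share over all several-gene probe sets was not computed. The probe set below 0, which lists HSPB2 beside C11orf52, read 97.7 in Sox2 and 152.7 in control (-0.64). The brightest of the 15, listing HSPA8 beside the small nucleolar RNAs SNORD14C and SNORD14D, read 4224 in the Sox2 array and 1992 in the control array (1.08, 2.12-fold). Another listing TCP1 and SNORA29 read 479 in Sox2 and 261 in control (0.88). A probe set listing HSPA1L, HSPA1B and HSPA1A read 151 in Sox2 and 85.7 in control (0.82), while the 2 that list HSPA1B and HSPA1A alone were dim, at 18.3 in Sox2 and 18.0 in control for the brighter.

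**Figure D2:**
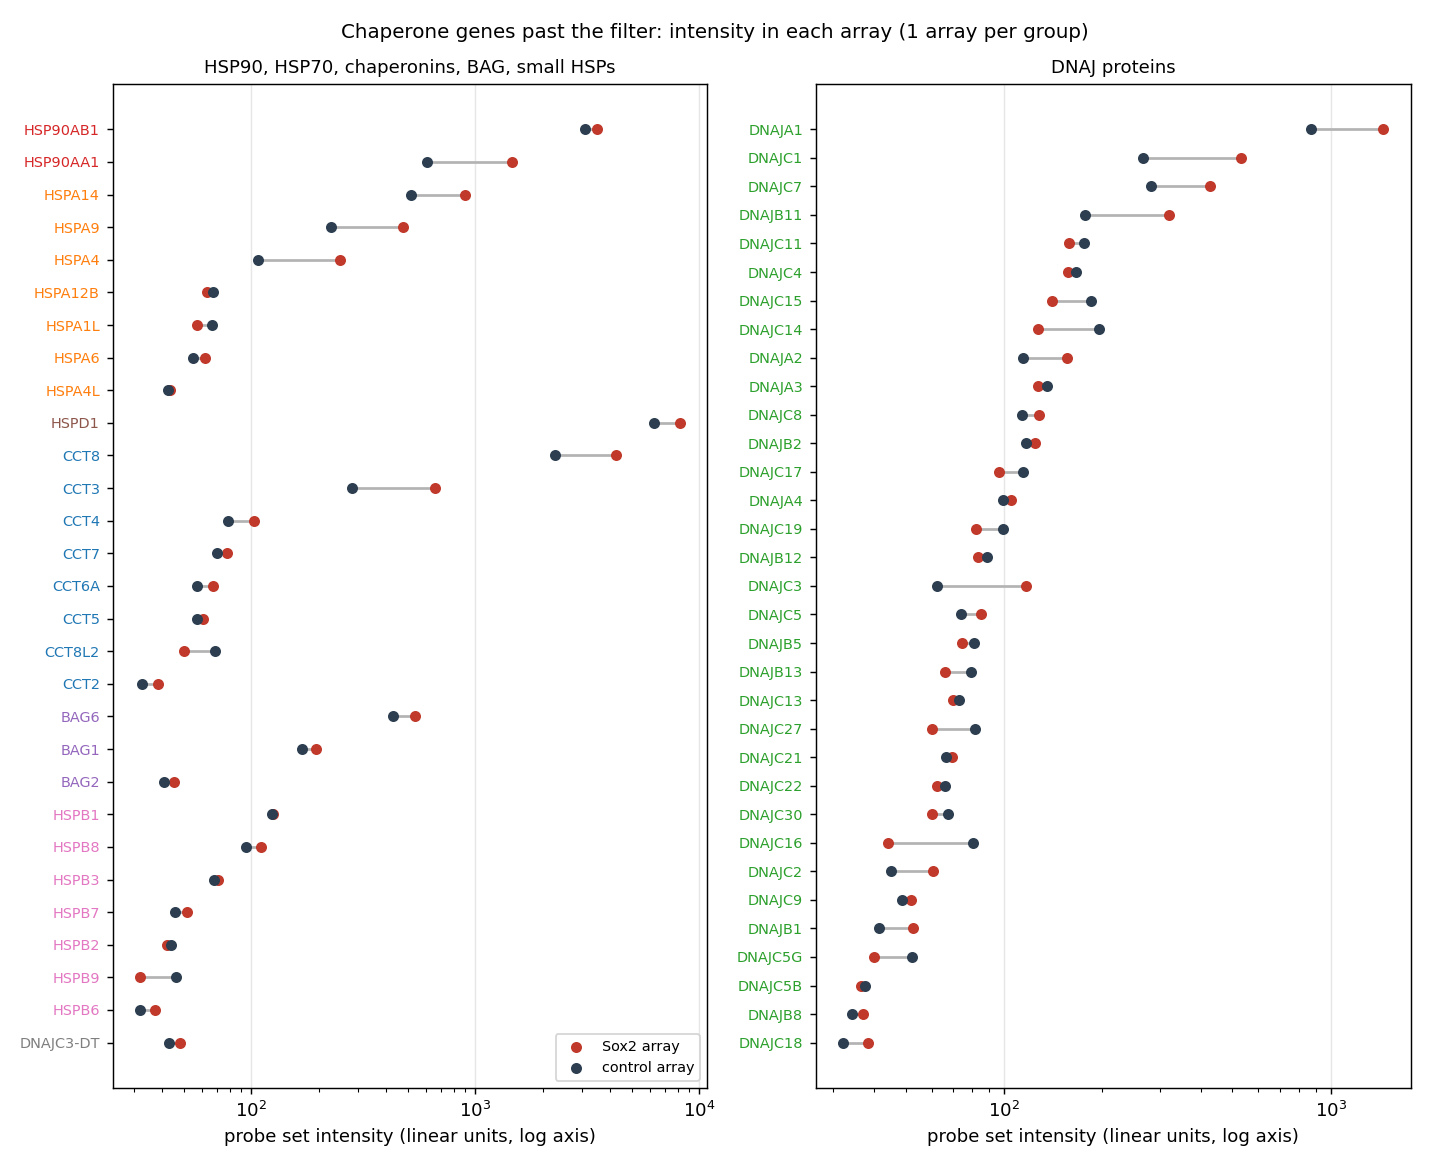
Intensity of each of the 62 chaperone genes past the filter in the Sox2 array (red) and the control array (dark), on a log axis, by group and in order of level. The widest red-over-dark gaps are those of HSP90AA1, CCT3, HSPA4 and HSPA9 on the left and DNAJC1 on the right, and DNAJC16 shows the widest gap the other way.

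The 7 CCT ring subunits with a probe set of their own all lay above 0, against 49.4% of all genes past the filter. Only the 2 brightest differed by more than 1.5-fold, a size that 6.24% of all genes reached upward. CCT3, the gamma subunit, read 662 in the Sox2 array and 282 in the control array (log2 difference 1.23, 2.35-fold). CCT8, the theta subunit, read 4239 in Sox2 and 2276 in control (0.90, 1.86-fold). These subunits form 1 ring with equal numbers of each, yet their differences ran from 0.10 to 1.23. CCT4 (delta) read 103 in Sox2 and 78.5 in control (0.39), CCT6A (zeta) 67.5 in Sox2 and 57.0 in control (0.25), and CCT2 (beta) 38.4 in Sox2 and 32.6 in control (0.24). CCT7 (eta) read 78.1 in Sox2 and 70.3 in control (0.15) and CCT5 (epsilon) 61.0 in Sox2 and 56.9 in control (0.10). Of the 7, CCT3, CCT8 and CCT4 exceeded the technical SD. The 7 lay above 0 under median centring, quantile normalization and lowess centring too, with medians between 0.24 and 0.25. CCT3 has 1 probe set, so nothing else on the array speaks to it. A second CCT4 probe set past the filter differed by 0.011, and a second of CCT2, below it, by 0.26.

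Of 2 relatives outside the ring, CCT8L2 lay below 0 and CCT6B above it. CCT8L2, a testis relative of CCT8, read 50.03 in the Sox2 array and 69.1 in the control array (-0.47). CCT6B, the testis form of the zeta subunit, was below the filter at 15.3 in Sox2 and 12.3 in control (0.32). Over the 8 CCT genes past the filter the median was 0.24, with 1 at least 2-fold higher (12.5%) and none lower. Of all genes past the filter, 2.06% were 2-fold higher and 0.647% lower.

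HSPD1, the HSP60 of mitochondria, was the brightest chaperone gene, at 8213 in the Sox2 array and 6271 in the control array (0.39, 1.31-fold). Others of its probe sets that passed gave 0.76 and 0.078. HSPE1, the HSP10 lid that is transcribed away from the same promoter, was below the filter at 23.6 in Sox2 and 17.2 in control, a difference of 0.45. The 2 genes differed in the same direction and by similar amounts, on probe sets of very different brightness.

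**Figure D3:**
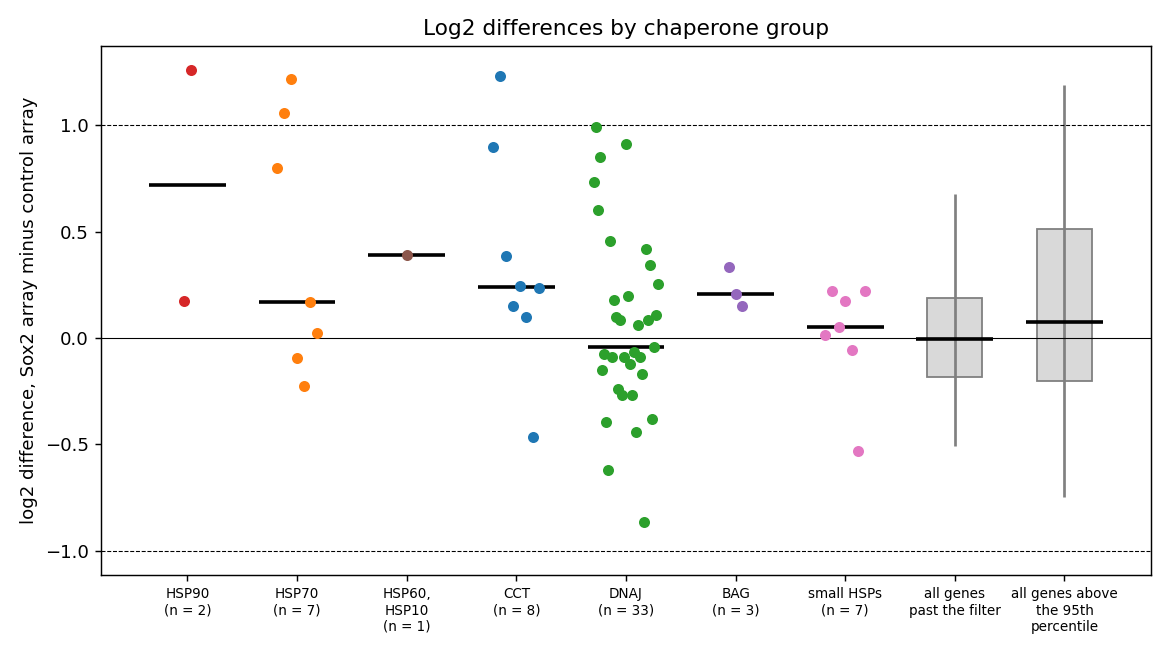
Log2 difference (Sox2 array minus control array) of each chaperone gene past the filter by group, with the group median as a black line; n is the number of genes. The boxes give the quartiles, and the whiskers the 5th to 95th percentiles, of all genes past the filter and of those above the 95th percentile of level; the DNAJ genes spread from -0.86 to 0.995 around a median of -0.041.

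By their brightest probe sets the DNAJ genes, the largest family, lay about equally above and below 0. Of 42 coding DNAJ genes 33 passed the filter, with a median of -0.041. Of these 16 lay above 0 (48.5%) and 17 below, against 49.4% of all genes above 0. None reached 2-fold in either direction, against 2.06% of all genes higher and 0.647% lower. At 1.5-fold 5 of the 33 were higher and 2 lower, the shares of all genes being 6.24% and 3.55%. The class A genes, closest to bacterial DnaJ, had a median of 0.27 over 4 genes. Class B had 0.099 over 7 and class C, which shares no more than the J domain, -0.071 over 22. The 7 DNAJ genes above the 95th percentile had a median of 0.60 but were split, with DNAJA1, DNAJB11, DNAJC1 and DNAJC7 above 0 and DNAJC4, DNAJC11 and DNAJC15 below. That is 57.1% above 0, the share of all genes this bright being 57.2%. The 26 others past the filter had a median of -0.054.

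Among the bright DNAJ genes, DNAJA1, the main farnesylated partner of cytosolic HSP70, read 1449 in the Sox2 array and 871 in the control array (0.73). DNAJC7, which binds both HSP70 and HSP90, read 427 in Sox2 and 281 in control (0.60). Its 2 further probe sets past the filter went the other way, at -0.13 and -0.29. DNAJA2, a further class A partner, read 156 in Sox2 and 114 in control (0.45), with a second probe set at -0.62. DNAJB1, the HSF1-inducible partner that serves in disaggregation, read 52.8 in Sox2 and 41.6 in control (0.35), with a second probe set below the filter at -0.13. DNAJC14, which is anchored in the ER membrane, read 127 in Sox2 and 195 in control (-0.62), with a second probe set at -0.15.

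The DNAJ genes were then set out by the compartment their proteins serve, a grouping made after the values were seen. DNAJB11, DNAJC1, DNAJC3 and DNAJC10 are partners of the ER chaperone HSPA5. DNAJC1 read 529 in the Sox2 array and 266 in the control array (0.995 on the log2 scale, just under 2-fold). DNAJC3, which also restrains the kinase PERK, read 117 in Sox2 and 62.1 in control (0.91), and DNAJB11 319 in Sox2 and 177 in control (0.85). These 3 are the largest differences upward in the family past the filter, and DNAJC10, below it, read 29.4 in Sox2 and 24.5 in control (0.26). Further DNAJC1 probe sets that passed gave 0.75 and 0.033, and the 3 other DNAJC3 probe sets, all dim, gave 0.35, -0.13 and -0.60. DNAJB11 has no other probe set. With _x_at and _s_at probe sets left out, DNAJC3 was left with a dim one at -0.13. Of DNAJ proteins anchored in the ER membrane, DNAJC18 read 38.3 in Sox2 and 32.1 in control (0.25), with its 2 other probe sets also above 0. DNAJB12, at 83.2 in Sox2 and 88.6 in control (-0.090), and DNAJC14, given above (-0.62), lay below it. DNAJC16 read 44.0 in Sox2 and 80.1 in control (-0.86), the largest difference downward of all members past the filter, with a second probe set at 0.28.

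Of the DNAJ genes whose proteins act in mitochondria, 5 were taken, again after the values were seen, and all 5 passed the filter. By their brightest probe sets they read slightly lower in the Sox2 array, with a median of -0.17, while HSPA9 and HSPD1 lay above 0. DNAJC15, a partner at the import channel, read 140.4 in the Sox2 array and 185 in the control array (-0.39). DNAJC19, of the same import motor, read 82.2 in Sox2 and 98.9 in control (-0.27), and DNAJC30 60.0 in Sox2 and 67.4 in control (-0.17). DNAJC11, of the inner membrane organising complex, read 158 in Sox2 and 176 in control (-0.15), and DNAJA3, the matrix partner of HSPA9, 127 in Sox2 and 136 in control (-0.091). Only DNAJC15 and DNAJC19 exceeded the technical SD, and second probe sets that passed gave 0.10 for DNAJC19 and 0.11 for DNAJC11. The 5 stayed below 0 under median centring, quantile normalization and lowess centring, but with all probe sets averaged DNAJA3 turned to 0.20 and DNAJC15 to 0.029. DNAJC28, a further DNAJ gene linked to mitochondria, was below the filter at 18.1 in Sox2 and 12.3 in control (0.56), so the direction depends on which genes are taken. GRPEL1, the nucleotide exchange factor of HSPA9, read 52.5 in Sox2 and 42.8 in control (0.29), and TRAP1, the mitochondrial HSP90, 152 in Sox2 and 145 in control (0.069).

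By their brightest probe sets the remaining DNAJ genes past the filter differed by less than 1.5-fold. Further probe sets past the filter differed by more for DNAJC4, at 67.5 in Sox2 and 116 in control (-0.79), and DNAJA4, at 45.2 in Sox2 and 75.95 in control (-0.75). The others past the filter gave -0.20 and 0.087 for DNAJC4 and -0.015 for DNAJA4. DNAJC2, a ribosome-bound partner of HSPA14, read 60.5 in the Sox2 array and 45.2 in the control array (0.42). DNAJC8, found with the splicing machinery, read 128 in Sox2 and 113 in control (0.18), and DNAJC17, also a splicing factor, 96.8 in Sox2 and 114 in control (-0.24). DNAJC5, the cysteine string protein of secretory vesicles, read 84.8 in Sox2 and 73.8 in control (0.20), with further probe sets at -0.15 and -0.10. DNAJC13, of endosomes, read 69.7 in Sox2 and 73.0 in control (-0.067). DNAJB13, of sperm and cilia, read 65.9 in Sox2 and 79.4 in control (-0.27), and DNAJC27 60.2 in Sox2 and 81.7 in control (-0.44). By its own probe set DNAJB6, an inhibitor of polyglutamine aggregation, was among the 9 DNAJ genes below the filter.

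By their brightest probe sets the 3 BAG genes past the filter lay slightly above 0, but BAG2 and BAG6 turned with the choice of probe set. BAG6, which guards tail-anchored membrane proteins, read 538 in the Sox2 array and 427 in the control array (0.34). BAG1, which couples HSP70 to the proteasome, read 194 in Sox2 and 168 in control (0.21), and BAG2, which inhibits the ubiquitin ligase CHIP, 45.1 in Sox2 and 40.7 in control (0.15). One BAG6 probe set, at 106 in Sox2 and 209 in control, differed by -0.97, against 0.21 and 0.27 for the others. The other BAG2 probe sets, both below the filter, differed by -0.68 and -0.12. With all probe sets averaged BAG2 was at -0.22 and BAG6 at -0.039, and with _x_at and _s_at probe sets left out BAG6 was at -0.97. The median of the 3 genes was 0.21, with none at 2-fold. BAG3, the stress-induced member that works with HSPB8 in selective autophagy, was below the filter at 24.0 in Sox2 and 19.2 in control (0.33), and BAG5 at 23.8 in Sox2 and 23.6 in control (0.016). BAG4, which was first described as a silencer of death receptors, was also below it. It read 54.7 in the Sox2 array and 17.4 in the control array, a log2 difference of 1.65. The other BAG4 probe sets differed by 1.59, at 5.07 in the Sox2 array and 1.68 in the control array, and by 0.16.

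The small heat shock proteins, holdases that keep clients soluble without ATP, showed no difference of 1.5-fold by probe sets of their own. All 7 passed the filter, with a median of 0.053. HSPB1 (HSP27) read 124 in the Sox2 array and 123 in the control array (0.017, and -0.014 under quantile normalization). HSPB8 read 111 in Sox2 and 94.9 in control (0.22), and a second probe set past the filter differed by -0.057. HSPB6, HSPB7 and HSPB3, known from muscle, differed by 0.22, 0.18 and 0.053. HSPB2, also of muscle, differed by -0.058 and HSPB9, of the testis, by -0.53, at 31.7 in Sox2 and 45.8 in control. A brighter probe set that lists HSPB2 with other genes differed by -0.64.

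Below the filter lay 22 members, 18 of them coding, with a median of 0.28, against -0.0019 for all 6164 genes below it. BAG4 and DNAJB4 were at least 2-fold higher among them, DNAJB4 at 21.6 in the Sox2 array and 10.4 in the control array. That is 9.09% of the 22, against 1.57% of all genes below the filter that were 2-fold higher and 1.44% that were 2-fold lower. The other DNAJB4 probe set, also dim, went the other way, at 10.8 in Sox2 and 11.9 in control (-0.13). Of the noncoding transcripts, DNAJC3-DT passed the filter at 47.9 in Sox2 and 42.7 in control (0.17). The others were dim, with differences from -0.36 for DNAJC27-AS1 to 0.77 for HSPA2-AS1.

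Probe sets of a gene did not always agree. Of 27 members past the filter with further probe sets past it, 13 (48.1%) had all of them on the side of the gene's value, against 44% of 5032 such genes over the array. Of the 5 among those at least 1.5-fold higher, 4 did, the exception being DNAJC7, against 56.4% of 472 genes over the array. With all probe sets of a gene averaged, 1 member, CCT3, was at 2-fold, out of 47 past the filter, and CCT3 has 1 probe set that averaging cannot change. HSP90AA1 then had a difference of 0.46, HSPA4 of 0.80 and HSPA9 of 0.40. With _x_at and _s_at probe sets left out, CCT3 and HSP90AA1 remained, out of 46, on the same probe sets as before.

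**Figure D4:**
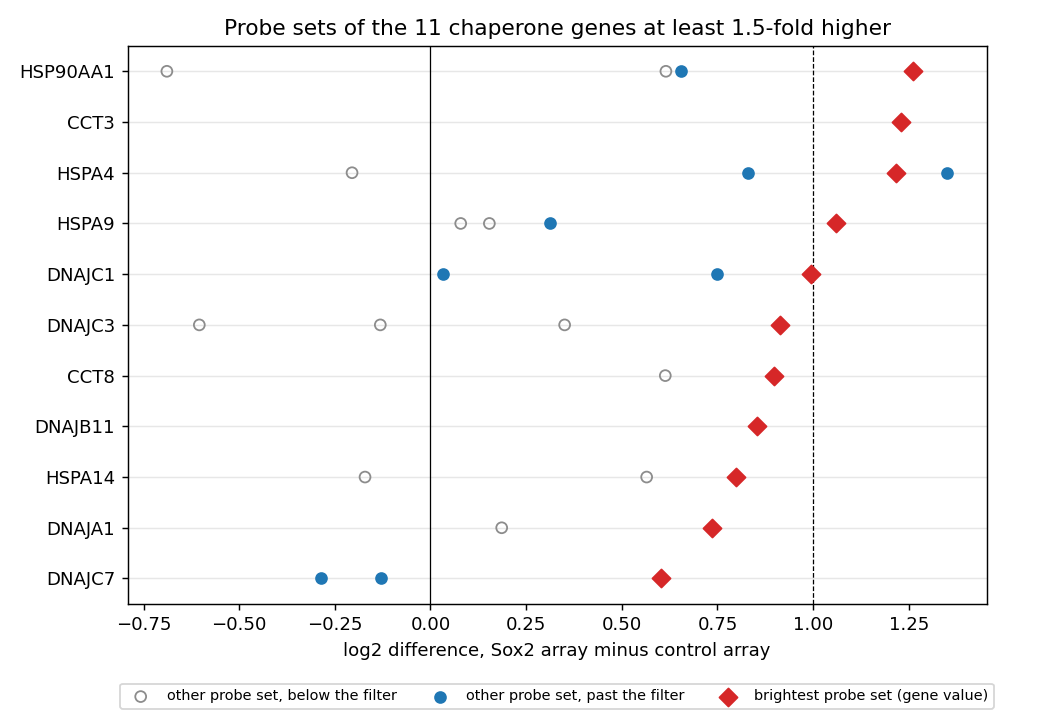
Log2 difference (Sox2 array minus control array) of every probe set of the 11 chaperone genes at least 1.5-fold higher, with the brightest as a red diamond, others past the filter as blue points and dim ones as open circles. The dashed line marks 2-fold; the further blue points of HSPA4, HSP90AA1, HSPA9 and DNAJC1 lie above 0 and those of DNAJC7 below.

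Cochaperones and regulators that are not members by symbol showed little difference. Of 28 listed, 25 had a probe set and 19 passed the filter. None of these reached 2-fold, 8 lay above 0 and 11 below, and the median was -0.033, near the -0.0038 of all genes. HSF1, the heat shock factor, read 102 in the Sox2 array and 111 in the control array (-0.13). ST13, which steadies HSP70 with its client, had the largest difference, at 927 in Sox2 and 598 in control (0.63). CLPB, a mitochondrial disaggregase, read 135 in Sox2 and 196 in control (-0.54), CRYAB, a small heat shock protein by structure, 497 in Sox2 and 345 in control (0.53), and FKBP4, an HSP90 immunophilin, 104 in Sox2 and 145 in control (-0.47). STIP1, which hands clients from HSP70 to HSP90, read 42.3 in Sox2 and 43.9 in control (-0.052).

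Prefoldin delivers unfolded actin and tubulin to CCT. Of 8 prefoldin and phosducin-like genes listed, 6 had a probe set and 5 passed the filter, none at 2-fold, with a median of 0.027. PFDN5 read 1491 in the Sox2 array and 2052 in the control array (-0.46), the opposite direction to CCT8 and CCT3. PFDN4 read 60.1 in Sox2 and 51.3 in control (0.23), PDCL, a phosducin-like CCT cofactor, 64.2 in Sox2 and 75.3 in control (-0.23), and PFDN2 285 in Sox2 and 267 in control (0.096).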

How the data were processed

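Gene expression in MKN28 cells was read on 2 arrays, 1 per group. The deposited table holds 1 linear intensity per probe set and array. Beyond RMA no tool is named, per the submitters' processing notes. Its settings and the last step are unknown here. Sorted, the columns differ by up to 1585, so they are not quantile normalized as they stand. Values were taken to log2 with no further scaling. Probe sets were named by the platform annotation: 41091 list 1 gene, 1801 several and 11721 none, beside 62 control probe sets. Each gene took its brightest probe set (by mean log2 value) and was counted at a difference of 2-fold where that mean reached the median. No p-value is given with 1 array per group, and the number of arrays limits the precision.

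Every member, SOX2 and the cell type markers may be named. From the cochaperone and prefoldin lists, genes at 2-fold or the 4 with the largest difference are named. HSF1, STIP1, GRPEL1 and TRAP1 are named besides, chosen after their values were seen. The markers printed singly and the compartment groups of the DNAJ genes were also chosen then. Members and lists were chosen with earlier results of these data known. Counting was tested on simulated data with noise smaller than the technical SD, so false counts at the real spread were not assessed. Protein sequences were not used here. Genomic lengths and promoters came from RefSeq (GRCh38.p14). Alternatives covered probe set choice, filter, scaling (lowess span 0.3) and fold. Python 3.11.15, numpy 2.4.6, pandas 2.3.3, SciPy 1.17.1, statsmodels 0.14.6 and matplotlib 3.10.9 were used.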

Additional observations from a re-analysis of the deposited data

Results flagged for a closer look

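One signal lay outside the probe sets compared. A probe set that lists HSPA8 with SNORD14C and SNORD14D, was 2.12-fold higher in the Sox2 array, at 4224 against 1992 in the control array (log2 difference 1.0845). It was set aside because it lists several genes. The other 3 probe sets that list HSPA8 differed by 0.94, 0.74 and 0.032, the last of them dim.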

How the results depend on the processing

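The count of 4 members at least 2-fold higher was 1 with all probe sets averaged, 2 with _x_at and _s_at probe sets left out and 11 at 1.5-fold, where the count lower was 2. It was 6 with no filter, 5 with a filter on the higher array, 3 with quantile normalization or lowess centring, and 4 with median centring or the filter at the 75th percentile. The filter on the higher array added BAG4, which passed it through its Sox2 reading alone. No member was 2-fold lower under these settings. The median of HSP70 was 0.80 with the filter at the 75th percentile, which keeps fewer members. It was 0.43 with the filter on the higher array, which added HSPH1 through its Sox2 reading alone. The median of HSP90 was 0.39 with averaged probe sets. The other group medians moved by less than the technical SD of 0.26. HSPA4 turned to -0.20 with _x_at and _s_at probe sets left out, which leaves 1 dim probe set. No paired analysis was possible because each group has 1 array. No detection call could be made, so signal over background is unknown for dim members.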
